A study of Homo sapiens with 96 samples.

Results

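The genes described here are 8 members of cholesterol synthesis and its control by SREBP, taken as the entries of the count table with the symbols HMGCS1, SQLE, INSIG1, IDI1, FDFT1, MVD, SREBF1 and SREBF2, out of 44659 gene entries. All 8 passed the filter on low counts that left 14948 entries. They were followed in 96 QuantSeq libraries of A375, an established human melanoma line that carries an activating BRAF mutation and was grown in serum. QuantSeq reads come from the 3′ ends of polyadenylated transcripts, and the RNA was cytoplasmic. Cells received DMSO or the MAPK inhibitors (hereafter MAPKi) vemurafenib, a BRAF inhibitor, and cobimetinib, a MEK inhibitor, at 500 nM each for 18 h. They were then given vehicle (DMSO), 100 µg/ml cycloheximide (CHX, an inhibitor of translation elongation), 25 µM triptolide (T, an inhibitor of transcription) or both (TCHX), with CHX 5 min before T, and were harvested at 0, 1, 3 or 5 h. This gave 32 groups of 3 libraries, all from 1 cell line. Nothing in the sources used here says that the 3 libraries came from separate cultures, so p-values measure the spread between libraries, which may be technical. Each harvest time was a separate set of plates, so time and plate set cannot be told apart.

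Cells make cholesterol from acetyl-CoA through the mevalonate pathway. HMGCS1 makes HMG-CoA, MVD makes isopentenyl diphosphate from mevalonate diphosphate, IDI1 isomerises it, FDFT1 joins farnesyl units into squalene, and SQLE oxidises squalene and is one of the rate-limiting steps. SREBF1 and SREBF2 encode SREBP-1 and SREBP-2, transcription factors that sit in the endoplasmic reticulum membrane. When membrane sterols are low they move with the escort protein SCAP to the Golgi, are cut, and switch on these genes. INSIG1 holds SCAP back when sterols are plentiful, and is itself an SREBP target with a short-lived protein. SREBP-2 favours cholesterol genes, while SREBP-1 favours genes of fatty acid synthesis.

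Libraries held between 2381351 and 12520154 counts (median 7143396). The labels of the pretreatment were checked on MAPK output genes, of which 12 of the 12 tested were lower in MAPKi at 0 h, with a median log2 difference of −4.15. Of 10 melanocytic lineage markers, MLANA, TYR and TYRP1 were at or near 0 in many libraries, while SOX10 and MITF were present in all. The summed level of the 10 ranged from 778 to 1135 CPM (counts scaled by library size) over DMSO libraries and from 2267 to 4109 CPM over MAPKi libraries. DCT carried most of that difference, at 54.9 CPM in DMSO and 2131 CPM in MAPKi in vehicle at 0 h, while the other 9 summed to 1027 and 1221 CPM, and S100B was lower in MAPKi (301 and 215 CPM). Of 13 markers of keratinocytes, fibroblasts, immune and endothelial cells, 4 were at 0 in every library, and the sum stayed between 2.13 and 7.30 CPM in DMSO and between 3.81 and 14.0 CPM in MAPKi. The part of these markers in the results below was not tested. In bulk RNA, fewer cells of a kind and less RNA per cell cannot be told apart.

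The depth behind each member differed. HMGCS1 had 82 to 1100 counts per library (median 328.5), INSIG1 72 to 1580 (median 332), SREBF2 75 to 611 (median 235.5), SQLE 84 to 447 (median 227), MVD 51 to 318 (median 128.5), IDI1 31 to 358 (median 121.5) and SREBF1 8 to 380 (median 89.5). FDFT1 had only 5 to 31 counts (median 14), and a repeat entry of the same symbol held another 2 to 61, so the level of this gene is uncertain. The spread between the 3 libraries of a group, as the coefficient of variation, had a median over the 32 groups of 10.8% for SQLE, 11.7% for SREBF2 and 13.2% for HMGCS1, against 40.0% for SREBF1. Values of SREBF1 are therefore the least precise of the well-counted members. INSIG1 was highest in replicate 3 in 14 of the 16 DMSO groups, as was HMGCS1 in 11, whereas replicate 2 was highest for SQLE in 13 and for HMGCS1 in 12 of the 16 MAPKi groups.

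In the GRCh38 annotation used here (GENCODE), HMGCS1 is on chromosome 5 from 43287470 to 43313512 on the minus strand, and INSIG1 on chromosome 7 from 155297776 to 155310235 on the plus strand. IDI1 is on chromosome 10 from 1039152 to 1049119 (minus), MVD on chromosome 16 from 88651935 to 88663161 (minus), SREBF1 on chromosome 17 from 17810399 to 17837002 (minus) and SREBF2 on chromosome 22 from 41833105 to 41907306 (plus). SQLE is on chromosome 8 from 124998497 to 125022283 (plus) and FDFT1 on the same chromosome from 11795573 to 11839395 (plus). SQLE, INSIG1 and MVD overlap no other annotated gene. IDI1 overlaps IDI2-AS1, SREBF2 overlaps SREBF2-AS1, and SREBF1 overlaps RAI1, each on the other strand, HMGCS1 and FDFT1 each overlap 1 unnamed gene on the other strand, and MIR33A and MIR33B lie within SREBF2 and SREBF1. The strand setting of the counting is not given in the sources used here, so counts at these overlaps are uncertain.

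The first comparison asked how the members stood after 18 h of MAPKi, before any block of transcription or translation. HMGCS1, INSIG1, MVD and SREBF2 were higher in MAPKi than in DMSO in the vehicle arm at 0 h, by 1.58-fold to 2.21-fold. Their libraries did not overlap, but the share of all genes without overlap was not computed, so this alone does not single them out. The members called higher were 4 of 8, against 21.8% of all genes tested (edgeR quasi-likelihood test, Benjamini-Hochberg adjusted p under 0.05, here and below). The median log2 difference was 0.51 over the 8 members and 0.03 over all genes. None of the 8 was called lower.

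HMGCS1 had 33.6, 27.4 and 35.3 CPM in the 3 DMSO libraries and 67.9, 84.6 and 61.4 CPM in the 3 MAPKi libraries. Its log2 difference was 1.15 ± 0.16 (SE), with an adjusted p of 4.42e-09 in edgeR. INSIG1 had 38.6, 28.0 and 54.1 CPM in DMSO and 88.0, 70.8 and 74.5 CPM in MAPKi, a log2 difference of 0.94 ± 0.25 (edgeR adjusted p 0.00121). Its lowest MAPKi library was still above its highest DMSO library. SREBF2 went from 21.2, 24.2 and 28.8 CPM to 44.7, 46.5 and 36.9 CPM, a log2 difference of 0.77 ± 0.16 (edgeR adjusted p 3.35e-05). MVD had 10.6, 17.8 and 11.3 CPM in DMSO and 19.2, 25.8 and 18.2 CPM in MAPKi, where the lowest MAPKi value lay just above the highest DMSO value (log2 difference 0.66 ± 0.25, edgeR adjusted p 0.0232). Without replicate 1, INSIG1 and MVD were no longer called, with adjusted p of 0.0894 and 0.162.

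The other 4 members showed no called difference at 0 h. SQLE had 38.2, 34.1 and 36.7 CPM in DMSO and 32.4, 34.7 and 31.4 CPM in MAPKi, a log2 difference of −0.15 with a 95% interval from −0.48 to 0.18. IDI1 was at 16.9 ± 3.42 and 19.6 ± 1.75 CPM (SD, n = 3 each; interval −0.31 to 0.70) and FDFT1 at 1.99 ± 0.0999 and 2.06 ± 0.0941 CPM (interval −0.75 to 0.86). SREBF1 was at 11.2 ± 6.61 and 14.8 ± 5.64 CPM, with a wide interval from −0.65 to 1.37. In each case the libraries of the pretreatments overlapped.

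At 0 h, when the inhibitors had only just been added, all 4 arms together offer 12 libraries per pretreatment at that time. HMGCS1 ranged from 24.1 to 35.3 CPM in DMSO and from 46.2 to 84.6 CPM in MAPKi, INSIG1 from 28.0 to 56.1 and from 58.7 to 88.0 CPM, and SREBF2 from 19.5 to 28.8 and from 36.9 to 51.9 CPM. None of these 3 pairs of ranges overlapped. Those of MVD did, at 10.6 to 19.6 CPM in DMSO and 15.8 to 38.7 CPM in MAPKi, as did those of the remaining members. The share of all genes whose libraries did not overlap was not computed, here or in the other comparisons. SQLE went the other way, with medians of 38.2 CPM in DMSO and 31.2 CPM in MAPKi, and in the fit over all arms it was lower in MAPKi by a log2 difference of −0.34 (edgeR adjusted p 0.000159). SREBF1 became called higher in the same fit (log2 difference 0.63, adjusted p 0.029). That fit was added after seeing the data, and it called 5349 of the 14948 genes higher and 5038 lower.

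For the 4 members called higher in MAPKi at 0 h, the promoter sequence is shown up to the annotated start of the gene, as the stretch of DNA that these genes have next to where transcription begins. The sequences are from RefSeq on GRCh38.p14, in the direction of the gene, and run from 250 bases before the start of the RefSeq table to the last base before the GENCODE gene start. The coordinates are chr5:43313513-43313662 (minus strand) for HMGCS1, chr7:155297628-155297775 (plus) for INSIG1, chr16:88663162-88663341 (minus) for MVD and chr22:41832855-41833104 (plus) for SREBF2. Capitals mark matches, on either strand, to the core of a sterol regulatory element (TCACNCCAC) and to CCAAT, the site of the NF-Y factor that often accompanies SREBP.
HMGCS1: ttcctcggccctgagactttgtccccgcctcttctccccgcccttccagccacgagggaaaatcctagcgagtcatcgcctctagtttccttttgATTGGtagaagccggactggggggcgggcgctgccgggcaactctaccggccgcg
INSIG1: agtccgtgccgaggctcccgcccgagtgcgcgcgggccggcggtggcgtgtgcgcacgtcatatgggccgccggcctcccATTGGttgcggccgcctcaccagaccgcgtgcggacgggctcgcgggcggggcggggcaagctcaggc
MVD: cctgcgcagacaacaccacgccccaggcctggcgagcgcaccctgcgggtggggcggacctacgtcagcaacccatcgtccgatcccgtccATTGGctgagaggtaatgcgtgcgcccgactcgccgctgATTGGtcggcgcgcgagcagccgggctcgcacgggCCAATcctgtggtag
SREBF2: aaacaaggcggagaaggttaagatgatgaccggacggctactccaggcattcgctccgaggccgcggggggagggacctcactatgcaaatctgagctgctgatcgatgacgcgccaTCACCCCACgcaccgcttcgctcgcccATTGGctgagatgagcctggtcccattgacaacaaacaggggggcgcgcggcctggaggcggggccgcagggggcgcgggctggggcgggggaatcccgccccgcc
The 250 bases were also searched for the E-box CACGTG. Of 35116 RefSeq promoters of this length, 0.883% held TCACNCCAC, 6.34% CACGTG and 32% CCAAT on either strand, and these motifs do not overlap one another in the stretches shown. Among the 6 members with an entry in the table, TCACNCCAC was matched in SREBF2 alone, with its first base 133 bases before the start. CCAAT was matched in HMGCS1 (at 155 and 100 bases before the start, the latter outside the stretch shown), INSIG1 (170), MVD (159, 120 and 85), SREBF2 (106) and in 2 of the IDI1 entries. INSIG1 had the E-box at 55 bases before the start, outside the stretch shown, and SREBF1 had no match to any of the 3. A match is a description of letters and not a measured site, and the absence of one says only that these letters are not in this window.

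Over the 4 vehicle times together, with 12 libraries per pretreatment, 6 of 8 members were higher in MAPKi, against 35.7% of all genes tested. INSIG1 had the largest difference, 2.76-fold (log2 1.46 ± 0.12, edgeR adjusted p 6.66e-17), from 38.4 ± 11.5 to 111 ± 37.1 CPM (SD, n = 12 each). HMGCS1 followed with 2.48-fold, from 34.5 ± 4.81 to 88.7 ± 25.4 CPM (SD, n = 12), and SREBF2 with 1.89-fold, from 24.7 ± 3.47 to 47.0 ± 5.30 CPM. For these 3 genes the lowest of the 12 MAPKi libraries was above the highest of the 12 DMSO libraries. SREBF1 (1.80-fold), MVD (1.59-fold) and IDI1 (1.40-fold) were also called, but their libraries overlapped, and SREBF1 lost the call without replicate 1 (adjusted p 0.141). SQLE had 1.03-fold, with a 95% interval of the log2 difference from −0.13 to 0.20, and FDFT1 1.05-fold, with −0.34 to 0.48. Among the enzymes, HMGCS1, MVD and IDI1 thus passed the test, and SQLE and the FDFT1 entry used here did not. The repeat entry of FDFT1 had its highest group means in MAPKi vehicle at 0 h (3.56 ± 1.59 CPM) and 3 h (3.33 ± 0.485 CPM). Its lowest was in MAPKi with CHX at 5 h (1.91 ± 0.683 CPM; SD, n = 3 each). No comparison is given for that entry, so FDFT1 is not settled.

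**Figure D1:**
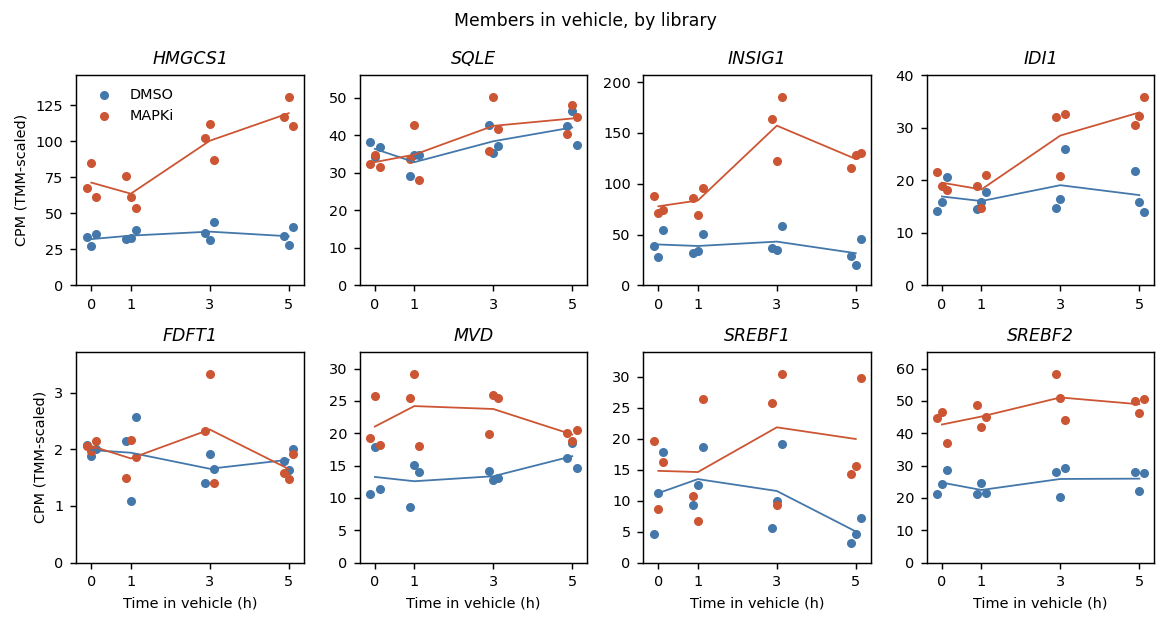
Level of each of the 8 genes in CPM (TMM-scaled, y axis) against time in vehicle in hours (x axis), for DMSO (blue) and MAPKi (red), with 1 point per library and lines through the means of 3. MAPKi points of HMGCS1, INSIG1 and SREBF2 lie above DMSO points at every time, while those of SQLE and FDFT1 mix.

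The vehicle arm itself was followed from 0 to 5 h. In DMSO none of the 8 members was called (0 at an unadjusted p under 0.05, and 0 by DESeq2), where 1.11% of all genes were called in either direction. In MAPKi, HMGCS1 rose further, from the 0 h values given above to 117, 131 and 111 CPM at 5 h, a log2 difference of 0.75 ± 0.15 (edgeR adjusted p 0.00089), where 1.22% of all genes were called higher. Without replicate 1 this call was lost (adjusted p 0.0615). At 3 h HMGCS1 was already at 102, 112 and 86.7 CPM, after 75.7, 61.5 and 53.6 CPM at 1 h.

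INSIG1 in MAPKi vehicle had 86.1, 68.9 and 95.5 CPM at 1 h, 163, 123 and 185 CPM at 3 h and 115, 128 and 130 CPM at 5 h. The 3 h level was the highest of this gene in any of the 32 groups. Between 0 and 5 h its libraries did not overlap. Neither did those of IDI1 (19.6 ± 1.75 and 32.9 ± 2.68 CPM) and SQLE (32.8 ± 1.70 and 44.4 ± 3.86 CPM; SD, n = 3 each). The adjusted p of 0.108, 0.0696 and 0.127 for INSIG1, IDI1 and SQLE in edgeR missed the threshold. FDFT1 did not overlap either but went down, from 2.06 ± 0.0941 to 1.65 ± 0.232 CPM (SD, n = 3 each; edgeR adjusted p 0.81). The share of all genes without overlap was not computed, so this alone does not single these members out. The replicate block and the fit on the compared groups each called INSIG1 and IDI1 besides HMGCS1, with adjusted p from 9.96e-05 to 0.0469. The difference of the time courses between MAPKi and DMSO was called for 0 members (4 at an unadjusted p under 0.05, and 0 by DESeq2), against 0.723% of all genes. For INSIG1 that difference had a 95% interval from 0.29 to 1.70 on the log2 scale, for HMGCS1 0.65 (SE 0.23) and for SREBF1 1.58 (0.06 to 3.09). With the replicate block INSIG1 was called for this difference (edgeR adjusted p 0.0299).

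The next comparison asked what blocking translation did while transcription went on. After 1 h of CHX, 0 of the 8 members were called in either pretreatment by edgeR and 0 by DESeq2, where 0.0736% of all genes were called in DMSO and 0.0602% in MAPKi. At an unadjusted p under 0.05 there were 0 members in DMSO and 1 in MAPKi. That 1 gene was IDI1, with 19.0, 14.8 and 21.1 CPM in vehicle and 25.3, 33.7 and 26.2 CPM in CHX (log2 difference 0.63, edgeR adjusted p 0.434). INSIG1 had 102 ± 6.43 CPM in CHX and 83.5 ± 13.5 CPM in vehicle in MAPKi at 1 h (SD, n = 3 each), and these libraries overlapped.

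Over 3 and 5 h, HMGCS1 and INSIG1 with CHX differed from vehicle in opposite directions in the 2 pretreatments. In DMSO cells they stood higher with CHX than in vehicle of the same times, and in MAPKi cells they stood lower. In DMSO, HMGCS1 had 57.3, 54.7 and 68.6 CPM with CHX at 3 h and 53.5, 62.0 and 71.7 CPM at 5 h. The vehicle libraries of the same times had 36.1, 31.8 and 44.0 CPM and 34.0, 27.8 and 40.4 CPM, so every CHX library was above every vehicle library. The log2 difference was 0.78 ± 0.11, with an adjusted p of 2.91e-08 in edgeR.

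INSIG1 in DMSO had 66.9, 47.8 and 80.9 CPM with CHX at 3 h and 53.5, 43.0 and 75.5 CPM at 5 h, against 36.5, 34.4 and 58.2 CPM and 28.6, 20.4 and 45.8 CPM in vehicle. Replicate 3 was the highest in each of these 4 groups, and the ranges overlapped. Within each replicate number CHX was above vehicle at both times. The log2 difference was 0.72 ± 0.18 (edgeR adjusted p 0.000988), but it was not called without replicate 1 (adjusted p 0.0846) or with only the compared groups fitted (0.0602). SREBF1 was called too, from 8.28 ± 5.78 to 15.6 ± 6.84 CPM (SD, n = 6 each; log2 difference 1.01 ± 0.38, edgeR adjusted p 0.0324). This call was lost on leaving out any 1 of the replicates, with adjusted p of 0.0636 to 0.243. In all, 3 of 8 members were called higher in DMSO, against 18.1% of all genes, and the median was 0.22 over the members and 0.01 over all genes. FDFT1 had −0.35 (95% interval −0.95 to 0.25).

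In MAPKi, 4 members were called lower with CHX, against 13.7% of all genes, and the median was −0.36 over the members and −0.01 over all genes. FDFT1 had −0.29 (−0.86 to 0.28). INSIG1 had 106, 93.8 and 106 CPM with CHX at 3 h and 44.1, 59.2 and 57.9 CPM at 5 h, all below the lowest vehicle library of these times, 115 CPM. Its log2 difference was −0.92 ± 0.17, with an adjusted p of 1.05e-05 in edgeR. HMGCS1 had 80.2, 94.7 and 78.0 CPM with CHX at 3 h and 77.3, 86.2 and 60.0 CPM at 5 h, below the vehicle libraries of the same replicate number (log2 difference −0.46 ± 0.11, edgeR adjusted p 0.000372).

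SREBF2 with CHX in MAPKi had 42.6, 36.3 and 42.5 CPM at 3 h and 37.7, 31.1 and 29.9 CPM at 5 h, against 58.2, 50.8 and 44.2 CPM and 49.9, 46.4 and 50.6 CPM in vehicle. The ranges did not overlap, and the log2 difference was −0.46 ± 0.11 (edgeR adjusted p 0.000545). SQLE had 32.6 ± 3.80 CPM with CHX and 43.4 ± 5.29 CPM in vehicle (SD, n = 6 each; log2 difference −0.41 ± 0.11, edgeR adjusted p 0.00285), a call lost without replicate 2 (adjusted p 0.0692). The calls of HMGCS1, SQLE and SREBF2 depended on the scaling. With size factors from the stable genes, which move the median of all genes from −0.01 to 0.28, their log2 differences were −0.16, −0.10 and −0.15 and no longer passed, while INSIG1 kept −0.62 with an adjusted p of 0.00175.

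**Figure D2:**
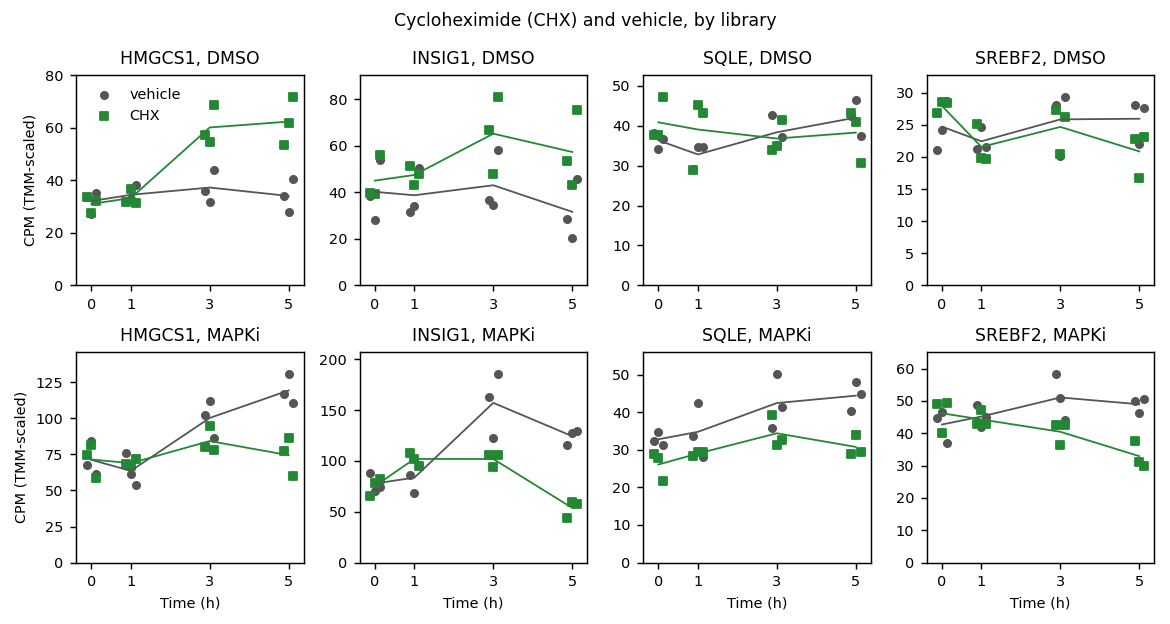
Levels in CPM (TMM-scaled, y axis) of HMGCS1, INSIG1, SQLE and SREBF2 against time in hours (x axis) with vehicle (grey circles) or CHX (green squares), in DMSO (top) and MAPKi (bottom), with 1 point per library and lines through means of 3. For HMGCS1 and INSIG1 the CHX line runs above the vehicle line at 3 and 5 h in DMSO and below it in MAPKi.

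The difference between these CHX responses was tested directly. It was −1.24 ± 0.16 on the log2 scale for HMGCS1 (95% interval −1.55 to −0.93, edgeR adjusted p 2.39e-09) and −1.64 ± 0.24 for INSIG1 (−2.12 to −1.15, adjusted p 6.77e-07). These were 2 of 8 members, against 6.49% of all genes called lower. In the 9 alternative settings HMGCS1 stayed between −1.29 and −1.07 and INSIG1 between −1.71 and −1.47, with largest adjusted p of 3.05e-05 and 0.00917. For the remaining members the interval included 0 or the adjusted p missed the threshold. IDI1 had −0.54 (−1.03 to −0.05, adjusted p 0.154), SREBF1 −1.13 (−2.14 to −0.12, adjusted p 0.153), MVD −0.46 (−0.95 to 0.02), SQLE −0.31 (−0.64 to 0.01), SREBF2 −0.27 (−0.59 to 0.05) and FDFT1 0.06 (−0.75 to 0.87). In MAPKi vehicle the mean of both genes was above its 0 h value at 3 and 5 h, as given above, where of the 2 only HMGCS1 passed the test from 0 to 5 h.

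**Figure D3:**
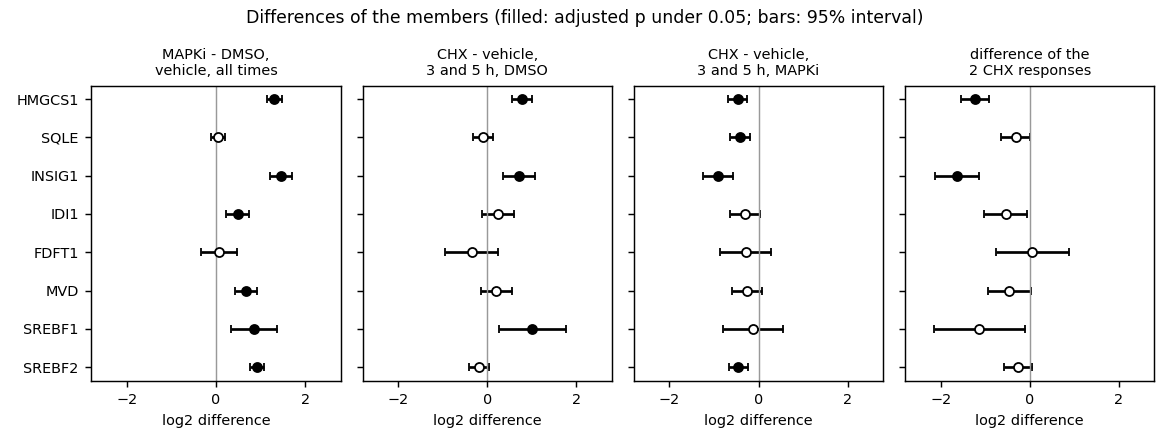
Log2 differences (x axis) of the 8 genes (y axis) for MAPKi against DMSO over all vehicle times, for CHX against vehicle over 3 and 5 h in DMSO and in MAPKi, and for the difference of the CHX responses, with 95% intervals as bars and filled points where the edgeR adjusted p was under 0.05. HMGCS1 and INSIG1 are to the right of 0 with CHX in DMSO, to the left in MAPKi, and at −1.24 and −1.64 in the last panel.

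Other genes of the pathway were taken from lists written with earlier results of these data known. Their counts stand beside the shares of all genes tested. These were 21.8% higher and 23.9% lower in MAPKi at 0 h, and 35.7% and 33.0% over all vehicle times. With CHX over 3 and 5 h, 18.1% were higher and 13.4% lower in DMSO, 15.9% and 13.7% in MAPKi, and 4.68% and 6.49% for the difference of the CHX responses. Of 18 other enzymes of cholesterol synthesis, 15 passed the filter, and at 0 h 1 was higher and 1 lower in MAPKi. These were TM7SF2, a sterol reductase (log2 difference 2.57 ± 0.24, edgeR adjusted p 9.35e-16), and LBR, a nuclear envelope protein with the same enzymatic activity (−0.58 ± 0.12, edgeR adjusted p 3.98e-05). Over all vehicle times 7 were higher and 2 lower, with a median of 0.21 against 0.05 over all genes. With CHX at 3 and 5 h, 3 rose and 3 fell in DMSO. TM7SF2 rose by 1.75 ± 0.18, whereas DHCR7, the last reductase of the pathway, had −0.57 ± 0.15. In MAPKi 1 was higher and 5 lower with CHX, among them CYP51A1 (−0.73 ± 0.15) and MSMO1 (−0.46 ± 0.15). The difference of the CHX responses was called lower for 4 of the 15 and higher for 0, with TM7SF2 at −1.78 and MSMO1 at −0.75.

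Of 16 genes of SREBP processing and turnover, 15 were tested. At 0 h 5 were lower and 0 higher in MAPKi, led by PAQR3, a Golgi protein that tethers SCAP (−0.95 ± 0.25), ERLIN1 (−0.95 ± 0.35) and RNF145, a sterol-responsive ubiquitin ligase (−0.78 ± 0.10). With CHX in MAPKi 7 were lower and 0 higher, and the difference of the CHX responses was lower for 3 and higher for 0, namely RNF145 (−0.64), MARCHF6 (−0.48) and SPRING1 (−0.42). Of 16 tested genes of sterol uptake and transport, 5 were higher and 4 lower in MAPKi at 0 h. TMEM97, a sterol-regulated membrane protein, was among those lower (−1.0). With CHX in DMSO 4 of the 16 were higher and 4 lower, and in MAPKi 2 were higher and 5 lower. The difference of the CHX responses was higher for 1 and lower for 2 of the 16.

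Of 21 tested genes of fatty acid synthesis, the side of SREBP-1, 4 were higher and 6 lower in MAPKi at 0 h. LPIN1, a phosphatidate phosphatase, was higher (3.06 ± 0.14), and FASN, the fatty acid synthase, was lower, at 239 ± 48.9 against 571 ± 44.3 CPM (SD, n = 3 each; log2 difference −1.26 ± 0.13, edgeR adjusted p 5.84e-14). With CHX 1 was higher and 4 lower in DMSO, and 2 higher and 8 lower in MAPKi, and the difference of these responses was higher for 0 and lower for 4 of the 21. Of 9 tested LXR receptors and targets, the sterol-overload side of the control, 5 were higher and 0 lower in MAPKi at 0 h, with a median of 0.65 against 0.03 over all genes.

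Triptolide was used to follow how the members declined without new transcription. Values with T are given with size factors from 36 genes, since TMM assumes that the typical gene does not change. These are genes whose CPM rose at least 1.1-fold with T at 3 and 5 h in every replicate. They were picked from the same libraries, so the size of each decline and the number of genes called lower depend on that choice. None of the members was among the 36. After 1 h of T none of the 8 was called in either pretreatment by edgeR or DESeq2, with 1 member in DMSO and 0 in MAPKi at an unadjusted p under 0.05, where 0.896% and 1.57% of all genes were called. IDI1 was the 1 member, at 11.2 ± 2.04 CPM against 18.1 ± 2.79 CPM at 0 h in DMSO (SD, n = 3 each; edgeR adjusted p 0.279).

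Over 3 and 5 h of T, INSIG1, SQLE and HMGCS1 fell in both pretreatments, IDI1 was called in MAPKi, and the remaining members were not called. In DMSO these were 3 of 8 lower, against 48.4% of all genes, with a median of −0.33 over the members and −0.47 over all genes. In MAPKi they were 4 of 8, against 55.8% of all genes, with medians of −0.57 and −0.59. INSIG1 fell most among them, by 1.05 on the log2 scale in DMSO (± 0.22, edgeR adjusted p 3.29e-05) and by 1.52 in MAPKi (± 0.20, edgeR adjusted p 2.09e-09). SQLE had −0.72 ± 0.14 and −1.15 ± 0.14, and HMGCS1 −0.58 ± 0.14 and −0.71 ± 0.13. IDI1 had −0.43 ± 0.21 (edgeR adjusted p 0.0847) in DMSO and −0.76 ± 0.21 (0.00146) in MAPKi, which was lost without replicate 1 (adjusted p 0.0572). With TMM the calls of HMGCS1 (−0.11 in DMSO and −0.07 in MAPKi), SQLE in DMSO (−0.24) and IDI1 in MAPKi (−0.11) were lost, while the median of all genes was near 0.

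At 5 h of T, the share of the 0 h vehicle level that remained was 31.9 ± 4.8% for INSIG1, 37.5 ± 1.76% for SQLE, 52.2 ± 22.9% for IDI1 and 57.8 ± 7.63% for HMGCS1 in MAPKi (SD, n = 3 each). In DMSO it was 42.3 ± 10.9%, 55.3 ± 5.85%, 76.2 ± 21.7% and 65.6 ± 20.0%. The median over all genes was 64.4 ± 3.15% in DMSO and 59.3 ± 1.44% in MAPKi, so INSIG1 and SQLE were below it in both pretreatments. SREBF2 kept 84.0 ± 11.2% in DMSO and 92.7 ± 7.51% in MAPKi, and MVD kept 100 ± 16.5% and 82.2 ± 11.9%, above the median. SREBF1 kept 91.7 ± 10.9% and 94.7 ± 44.2%, and FDFT1 87.3 ± 8.21% and 62.4 ± 13.7%. The median of the 8 shares in DMSO moved to 115% with TMM and 99.8% with total counts, so the shares hold for this scaling only. SREBF2 in MAPKi turned from −0.10 to 0.55 on the log2 scale with TMM (adjusted p 0.000558), where the median of all genes went from −0.59 to 0.05.

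**Figure D4:**
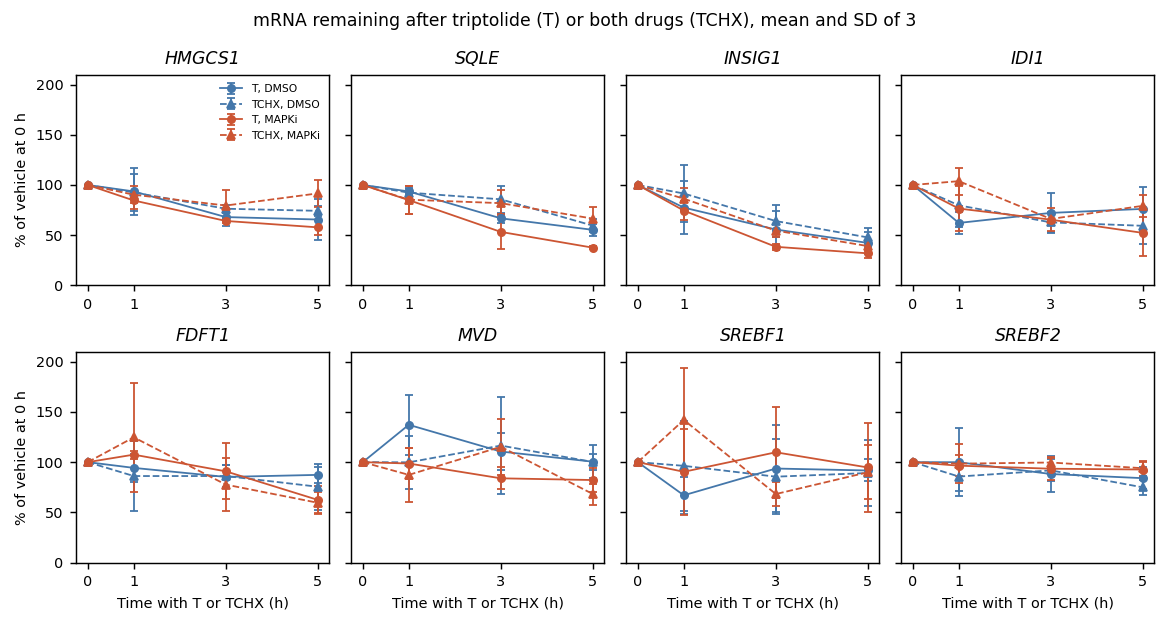
Level as a percentage of vehicle at 0 h (y axis) against hours with T (circles, solid) or TCHX (triangles, dashed) in DMSO (blue) and MAPKi (red) for the 8 genes, as means with SD of 3 libraries, scaled by the stable genes. INSIG1 and SQLE fall to between 31.9% and 55.3% at 5 h of T, while SREBF2 stays at 84.0% or above with T. With TCHX SREBF2 is at 74.9% in DMSO at 5 h.

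The decline was not called different between MAPKi and DMSO for any member (0 by edgeR, 0 by DESeq2, 1 at an unadjusted p under 0.05), against 3.12% of all genes. The 1 was SQLE, with −0.43 on the log2 scale and a 95% interval from −0.84 to −0.03 (adjusted p 0.317). For INSIG1 the interval ran from −1.07 to 0.15 and for HMGCS1 from −0.53 to 0.27.

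Adding CHX to T asked whether the decline needed translation. In MAPKi, HMGCS1 and SQLE stood higher with both inhibitors than with T alone over 3 and 5 h. HMGCS1 had 54.9, 74.2 and 53.4 CPM at 3 h and 58.6, 75.4 and 76.4 CPM at 5 h with TCHX, against 50.7, 48.9 and 47.7 CPM and 37.9, 49.5 and 45.2 CPM with T (stable-gene scaling). Every TCHX library was above every T library, and the log2 difference was 0.48 ± 0.11 (edgeR adjusted p 0.000189). SQLE had 26.5, 34.1 and 25.9 CPM at 3 h and 19.4, 27.2 and 23.6 CPM at 5 h with TCHX, against 17.1, 25.5 and 13.6 CPM and 12.8, 13.9 and 12.9 CPM with T (log2 difference 0.71 ± 0.12, edgeR adjusted p 3.75e-07). Within each time and replicate number TCHX was above T.

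These 2 of 8 members compare with 41.3% of all genes called higher, and the median of the 8, 0.20, was below that of all genes, 0.34. INSIG1 had 0.40 (95% interval 0.04 to 0.75, edgeR adjusted p 0.067) and IDI1 0.29 (−0.06 to 0.65). FDFT1 had −0.13 in MAPKi and −0.12 in DMSO. In DMSO 0 of 8 were called by edgeR or DESeq2 (0 at an unadjusted p under 0.05), against 28.9% of all genes, with HMGCS1 at 0.18 (−0.06 to 0.42) and SQLE at 0.23 (−0.0039 to 0.46). With TMM in place of the stable genes, HMGCS1 in MAPKi was at 0.10 and not called (adjusted p 0.55), and with total counts at 0.25 (0.0701). The difference between pretreatments was called for 0 members by edgeR (2 at an unadjusted p under 0.05) and 1 by DESeq2, against 7.02% of all genes in edgeR. It was 0.48 for SQLE (95% interval 0.15 to 0.82, edgeR adjusted p 0.0631, DESeq2 adjusted p 0.0481) and 0.56 for IDI1 (0.05 to 1.06, edgeR adjusted p 0.202).

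The study's index of translation-dependent decay (TDD index) puts the same data on the scale of the initial level, as TCHX minus T divided by vehicle at 0 h, here averaged over 3 and 5 h for each replicate number. SQLE had 0.228, 0.292 and 0.346 in MAPKi and 0.0545, 0.0268 and 0.272 in DMSO. HMGCS1 had 0.169, 0.280 and 0.285 in MAPKi and −0.0766, 0.204 and 0.159 in DMSO. Both gave an exact permutation p of 0.2 (two-sided, 3 against 3 values), where 0.1 is the smallest this design can give. The permutation did not pair replicate numbers. Within replicate numbers, MAPKi was above DMSO in 3 of 3 for SQLE, HMGCS1, IDI1 and SREBF2. It was above in 2 of 3 for INSIG1, FDFT1 and MVD, and in 1 of 3 for SREBF1. The mean index was higher in MAPKi for 6 of the 8 members, with exact p from 0.2 to 0.7 over all 8, and lower for FDFT1 and SREBF1. The share of all genes with a higher index in MAPKi was not computed. For TCHX against T, the difference between pretreatments had a median of 0.13 over all genes, with 6.73% called higher and 0.294% lower. In a limma fit over 12997 genes, with a term for the replicate number, SQLE had an unadjusted p of 0.0214. Its adjusted p was 0.287, and 1 gene in all was called.

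**Figure D5:**
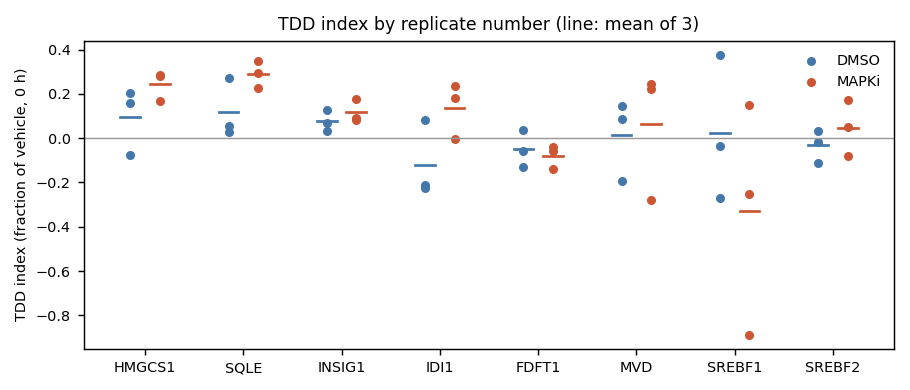
TDD index of the 8 genes (x axis) as a fraction of the vehicle level at 0 h (y axis), with 1 point per replicate number in DMSO (blue) and MAPKi (red) and lines at the mean of 3. For SQLE and HMGCS1 the highest DMSO point lies among or near the MAPKi points, and SREBF1 in MAPKi spreads from −0.888 to 0.149.

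Adding T to CHX asked how far the levels with CHX depended on transcription. Over 3 and 5 h, 5 of 8 members were lower with TCHX than with CHX in DMSO, against 42.7% of all genes, and 5 of 8 in MAPKi, against 55.4%. HMGCS1 had −1.46 ± 0.12 on the log2 scale in DMSO, where CHX had raised it, and −0.69 ± 0.11 in MAPKi (edgeR adjusted p 1.17e-19 and 8.68e-08). In DMSO its 6 TCHX libraries lay between 23.6 and 27.4 CPM, and its 6 CHX libraries between 63.3 and 88.5 CPM (stable-gene scaling). INSIG1 had −1.58 ± 0.18 and −1.35 ± 0.17, IDI1 −1.15 ± 0.18 and −1.12 ± 0.17, and SQLE −0.65 ± 0.12 and −0.73 ± 0.12, all 3 called in both pretreatments. SREBF2 in DMSO had −0.29 (edgeR adjusted p 0.0486), a call lost in 7 settings, among them without replicate 1 (adjusted p 0.117), without replicate 3 (0.301) and with stable genes taken at 3 or 5 h (0.134), and the value turned to 0.08 with TMM. FDFT1 had 0.08 in DMSO and −0.49 in MAPKi, neither called, and SREBF1 in MAPKi (−1.05 ± 0.35, adjusted p 0.00704) was lost without replicate 2 (0.111). With TMM, HMGCS1 and SQLE in MAPKi went to −0.13 and −0.17 and were no longer called. The CHX arm, the T arm and the vehicle arm are each used in more than 1 of these comparisons, so that the comparisons are not independent.

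Over all 32 groups, on the TMM scale, which also covers the groups with T, SREBF2 separated the pretreatments most fully. The 16 highest group means of SREBF2 were the 16 MAPKi groups, while 15 of the 16 highest of HMGCS1, 13 each of INSIG1, MVD and SREBF1, 10 of IDI1, 9 of FDFT1 and 4 of SQLE were MAPKi groups. HMGCS1 was highest in MAPKi vehicle at 5 h, at 119 ± 10.1 CPM, and lowest in the DMSO T arm at 0 h, at 27.1 ± 4.02 CPM (SD, n = 3 each), a 4.41-fold range. INSIG1 ran from 157 ± 31.6 CPM in MAPKi vehicle at 3 h to 23.5 ± 4.35 CPM in DMSO TCHX at 5 h, a 6.69-fold range. SREBF1 spanned 4.72-fold, SREBF2 3.21-fold, IDI1 2.93-fold, MVD 2.33-fold, SQLE 2.14-fold and FDFT1 2.13-fold. With stable-gene scaling the ranges were 9.01-fold for INSIG1, 5.87-fold for HMGCS1, 5.18-fold for SREBF1, 3.74-fold for SQLE, 3.42-fold for IDI1, 2.77-fold for SREBF2, 2.49-fold for MVD and 2.10-fold for FDFT1. On that scale HMGCS1 and INSIG1 were both lowest in DMSO with T at 5 h, at 22.6 ± 6.88 and 18.2 ± 4.70 CPM, and the 16 highest SREBF2 means were again the MAPKi groups. In the TMM order, neighbours differed by less than the sum of their SDs in 30 of 31 pairs for HMGCS1 and INSIG1 and in 31 of 31 for the other 6.

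The members fell into patterns that were compared by Pearson's r over the 32 group means of log2 CPM, which share libraries, scaling and pretreatment and are given as a description. MVD and SREBF2 had 0.84, HMGCS1 and INSIG1 0.81, HMGCS1 and SREBF2 0.79, and INSIG1 and IDI1 0.76. SQLE stood apart, with −0.23 to HMGCS1, 0.18 to INSIG1, −0.50 to SREBF2 and −0.56 to SREBF1. So did FDFT1, with its low counts, at −0.14 to HMGCS1, −0.12 to INSIG1, −0.29 to SQLE and at most 0.30 (MVD). Among all other genes tested, the profile most like that of HMGCS1 was CA8 (0.96), followed by ZNF226 and STX12 (0.95 each). For INSIG1 these were FOXD3 (0.90), TFAP2A and HECA (0.89 each), for SREBF2 BACE1, BNIP3L and GABARAP (0.98 each), and for SQLE they included LSM11 (0.83) and ZBED4 (0.82). MVD was most like MICAL1 (0.90), USP11 (0.89) and MAP3K13 (0.88), SREBF1 like ZFAND3 (0.92), COQ6 and MRPL33 (0.89 each), and IDI1 like EGF (0.81), PDCD6IP and RWDD3 (0.80 each). FDFT1 was most like the mitochondrial tRNA entries TRNW (0.75), TRNV and TRNR (0.72 each). No member was among the 3 most alike of another.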

How the data were processed

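The 96 QuantSeq 3′ libraries were grouped by pretreatment, arm and time as the labels give them (32 groups of 3). The values used are the raw counts per gene that the authors deposited. Per the labels, the authors trimmed reads with fastp 0.20.1, aligned them with HISAT2 2.2.1 to GRCh38.p13 and counted exons with HTSeq 0.13.5. The study's methods name NCBI's annotation, and the strand setting is not given in the sources used here. A 3′ count does not scale with transcript length, but priming inside a transcript and overlapping genes can add to it. The spike-ins were not used here.

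Counts were fitted in edgeR 4.0.16 (R 4.3.3) with the quasi-likelihood test, 1 mean per group over all 96 libraries, two-sided, with Benjamini-Hochberg adjustment over the 14948 entries kept by filterByExpr and calls at an adjusted p under 0.05. Contrasts without triptolide used TMM scaling. Contrasts with triptolide used size factors from 36 stable genes, a rule adapted from the study's methods: genes over 0.2 CPM in vehicle at 0 h that rose at least 1.1-fold with triptolide in every replicate at both 3 and 5 h, with an initial CPM over 10% of the later one. The study took 3 or 5 h, which gives 526 genes and was an alternative. Total counts ran from 2381351 to 12520154 per library. The edgeR fit with TMM scaling was also run on simulated counts, with the same spread for every gene and changes placed in well-counted genes. That run does not cover low counts, wider spread or the contrasts with triptolide. TDD indices were compared by exact permutation tests and in limma 3.58.1. DESeq2 1.42.0, other scalings, no filter, a replicate block, the compared groups alone and leaving out each replicate were alternatives; using all arms at 0 h was added after seeing the data.

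The members and gene lists were chosen with earlier results of these data known. The rule names all 8 members in every comparison, of which those not called are mostly given by counts and medians. Of each list, at most the 3 called genes with the largest absolute log2 difference per comparison are named, and of like profiles the 3 with the highest r. Some genes that this rule names are not reported here. The main fits did not pair the libraries by replicate number. Of 1488 same-numbered pairs only 193 correlated above 0.1, and the lowest was −0.267. Yet 64 of the 96 libraries correlated best on average with their own number, and the column names of the counts share a prefix within each number. What the numbers share was not tested, and the replicate block is the alternative that takes them into account. The TDD index does combine same-numbered libraries.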

Additional observations from a re-analysis of the deposited data

Results flagged for a closer look

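The response to CHX over 3 and 5 h differed between the pretreatments for HMGCS1 and INSIG1, by a test of the difference itself. For HMGCS1 the MAPKi response minus the DMSO response was −1.24 on the log2 scale (edgeR interaction term, adjusted p 2.39e-09), with CHX above vehicle by 0.78 in DMSO and at −0.46 in MAPKi. For INSIG1 the difference was −1.64 (adjusted p 6.77e-07), with 0.72 in DMSO and −0.92 in MAPKi. In MAPKi the HMGCS1 response of −0.46 went to −0.16 with stable-gene scaling and that of INSIG1 to −0.62. Single libraries far from their group were not looked for, since groups of 3 are too small for that test.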

How the results depend on the processing

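Over all settings, 611 of the members' log2 differences, TDD differences and shares kept their direction and side of the threshold, 28 gained a call, 33 lost one, 35 moved by more than the spread and 9 reversed. The number of members called at 0 h was 2 to 4 on leaving out each replicate (2 without replicate 1), over all vehicle times 5 to 6, with CHX 1 to 2 in DMSO (1 without replicate 1) and 3 to 4 in MAPKi, with T 3 to 4 in each pretreatment, with TCHX against CHX 4 to 5 in each, and for vehicle from 0 to 5 h in MAPKi 0 to 1; the median share left at 5 h of T was 73.2% to 83.0% in DMSO and 57.1% to 64.9% in MAPKi, and the TDD index was higher in MAPKi for 6 to 7 members. Vehicle from 0 to 5 h gave 1 call in DMSO without a filter (SREBF1), and in MAPKi 2 with DESeq2 and 3 without a filter, with only the groups compared, or with the replicate block. The difference of these courses gave 2 calls without a filter. CHX in DMSO gave 1 with only the groups compared, and CHX in MAPKi 1 with stable-gene size factors. TCHX against T gave 1 call in DMSO with TMM (IDI1, lower), 1 in MAPKi with total counts and 1 for the difference with DESeq2 (SQLE). TCHX against CHX in MAPKi gave 3 with TMM. The median share left at 5 h of T was 115% in DMSO and 102% in MAPKi with TMM, 99.8% and 79.9% with total counts, and 49.1% in MAPKi with mitochondrial rRNA. With TMM, SREBF2 reversed with T in MAPKi (0.55), with TCHX against T in MAPKi (−0.34) and with TCHX against CHX in DMSO (0.0781, and 0.0694 with total counts) and in MAPKi (0.44). The TDD difference reversed with TMM for MVD (−0.0032) and SREBF2 (−0.0699), and for FDFT1 with mitochondrial rRNA (0.0096) and without replicate 3 (from −0.0788 to 0.0447 on leaving out each replicate). The causes were not tested.

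With the replicate block, INSIG1 and IDI1 were called in MAPKi vehicle from 0 to 5 h (3 members in all), the difference of these courses was called for 1 (INSIG1), INSIG1 was called in MAPKi with TCHX against T (0.38) and MVD in DMSO with TCHX against CHX (−0.41). Of the 96 libraries, 64 correlated best with their own number.

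Scaling moved the balance of all genes. The share of calls that were higher went, with stable-gene size factors, from 57.6% to 81.2% for CHX in DMSO, from 53.7% to 94.2% for CHX in MAPKi, from 41.9% to 77.8% for their difference, and for vehicle from 0 to 5 h from 55.4% to 71.3% in DMSO, 37.7% to 62.6% in MAPKi and 35.2% to 62.2% for the difference. With TMM it went from 2.61% to 37.5% for T in DMSO, 2.2% to 48.5% in MAPKi and 12.8% to 41.2% for the difference, from 98.4% to 69.1%, 98.8% to 55.8% and 95.8% to 76.9% for TCHX against T, and from 7.19% to 46.3% and 3.23% to 52.9% for TCHX against CHX. With total counts it was 14% and 12.6% for T, 83.7% for TCHX against T in MAPKi, and 45.3% and 24.2% for TCHX against CHX. The number of all genes called at 0 h was 6828, and 10387 with all arms. For T it was 7428 in DMSO, 4923 with TMM and 4574 with total counts, and 8533 in MAPKi and 5279 with total counts. For the difference of the CHX responses it was 1670, and 825 and 806 without replicates 1 and 3. For that of T it was 467, from 125 to 1599 over settings, and for that of TCHX against T 1050, from 396 to 672 in 5 settings. For vehicle from 0 to 5 h it was 166 in DMSO (46 to 412 over settings), 485 in MAPKi (130 to 193 on leaving out a replicate) and 108 for the difference (5 to 404). At 1 h with CHX it was 11 in DMSO (4 to 38) and 9 in MAPKi (2 to 191). At 1 h with T it was 134 in DMSO and 235 in MAPKi, and 44 to 88 and 50 to 154 in the settings that moved it most. The remaining settings stayed nearer to 134 and 235.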
